A study of Mus musculus with 2 samples.

Results

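Protein phosphatases and their regulatory subunits were examined in FMRP RNA immunoprecipitation sequencing (RIP-seq) of wild-type mouse testis. In RIP-seq, RNA that comes down with a precipitated protein is sequenced beside the RNA of the unprecipitated lysate. Testicular lysate of adult wild-type male mice was kept in part as input and precipitated in part with an anti-FMRP antibody, which gave 1 input library and 1 FMRP RIP library. No treatment, transgene or mutation is given for these mice, and neither their number nor whether their tissue was pooled is stated in the labels or the RIP methods. The members were chosen by gene symbol, from the families *Ppp1* to *Ppp6*, *Ppm1*, *Phlpp*, *Ptpn*, *Dusp*, *Ssh*, *Ctdsp*, *Eya*, *Ppef*, *Strn*, *Phactr* and *Sbf*, together with *Rpap2* and *Set* and further symbols of which no gene was listed. The cell cycle phosphatases named *Cdc14* and *Cdc25* were left out by this rule. It found 69 genes among the 4788 listed genes, each with its own symbol.

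The table holds only protein-coding genes called higher in the FMRP RIP by the authors, so the direction of every member was fixed by that selection, and genes outside it have no value here. Its values are read counts scaled to 1000000 reads per library (CPM; input CPM and RIP CPM for the input and the FMRP RIP library), which are not divided by transcript length and are therefore compared within a gene, not between genes. The input library held 30849871 reads and the FMRP RIP library 36506932, a depth recovered from the smallest step between the values. With 1 library per group there is no replicate error and no test between conditions. The interval given with a ratio is an exact Clopper-Pearson 95% confidence interval from rounded reads and covers counting error only, since PCR copies are not independent molecules. No IgG library was used here, and the part of background binding to beads or antibody in any value was not tested. Of 17 marker genes of germ cells, *Sycp1* and *Spata18* were listed, and of 21 markers of Sertoli, Leydig, peritubular, endothelial and immune cells only *Vwf* was, so the table can say little about the cell types in the lysate. In whole testis, fewer cells of a type and less RNA per cell cannot be told apart.

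FMRP is an RNA-binding protein that associates with translating ribosomes, mostly over coding sequence, and is known for holding back translation of its targets in neurons. Protein phosphatases remove phosphate from serine, threonine or tyrosine. The PPP enzymes PP1, PP2A, calcineurin, PP4 and PP6 have few catalytic subunits, and these receive their substrates and their place in the cell from a large set of regulatory subunits. The PPM, tyrosine and dual-specificity phosphatases instead carry their targeting domains in the same polypeptide as the catalytic domain. In male germ cells, PP1 and calcineurin are known for sperm motility, and PP2A with its B56 subunits for protecting centromeric cohesin in meiosis.

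Enrichment is given here as log2 of RIP CPM over input CPM, with 1 CPM added to both values. Of the 69 members, 54 (78.3%) had a log2 enrichment above 1, against 70.1% of all listed genes, and 66 (95.7%) were at least 1.5-fold higher, against 97.3%. The median log2 enrichment of the members was 1.40, with quartiles of 1.07 and 2.06, against 1.35 for all listed genes, whose quartiles were 0.92 and 2.0. By these values the phosphatase genes were enriched to about the same degree as the other listed genes. Together they took 0.163% of input and 0.636% of RIP reads, a ratio of 3.89, and all listed genes together had the same ratio of 3.89. A log2 enrichment above 2 was found for 20 members (29.0%) and for 25% of all listed genes. Ratios of CPM, without the pseudocount, ran from 1.60 for *Ppp1r37* to 17.0 for *Ppp2r5c*. The lower limit of the interval was above 2 for 51 of the 69 members and above 1 for all 69. Neither count is support, since only genes called higher were listed. The same counts over all listed genes were not made.

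**Figure D1:**
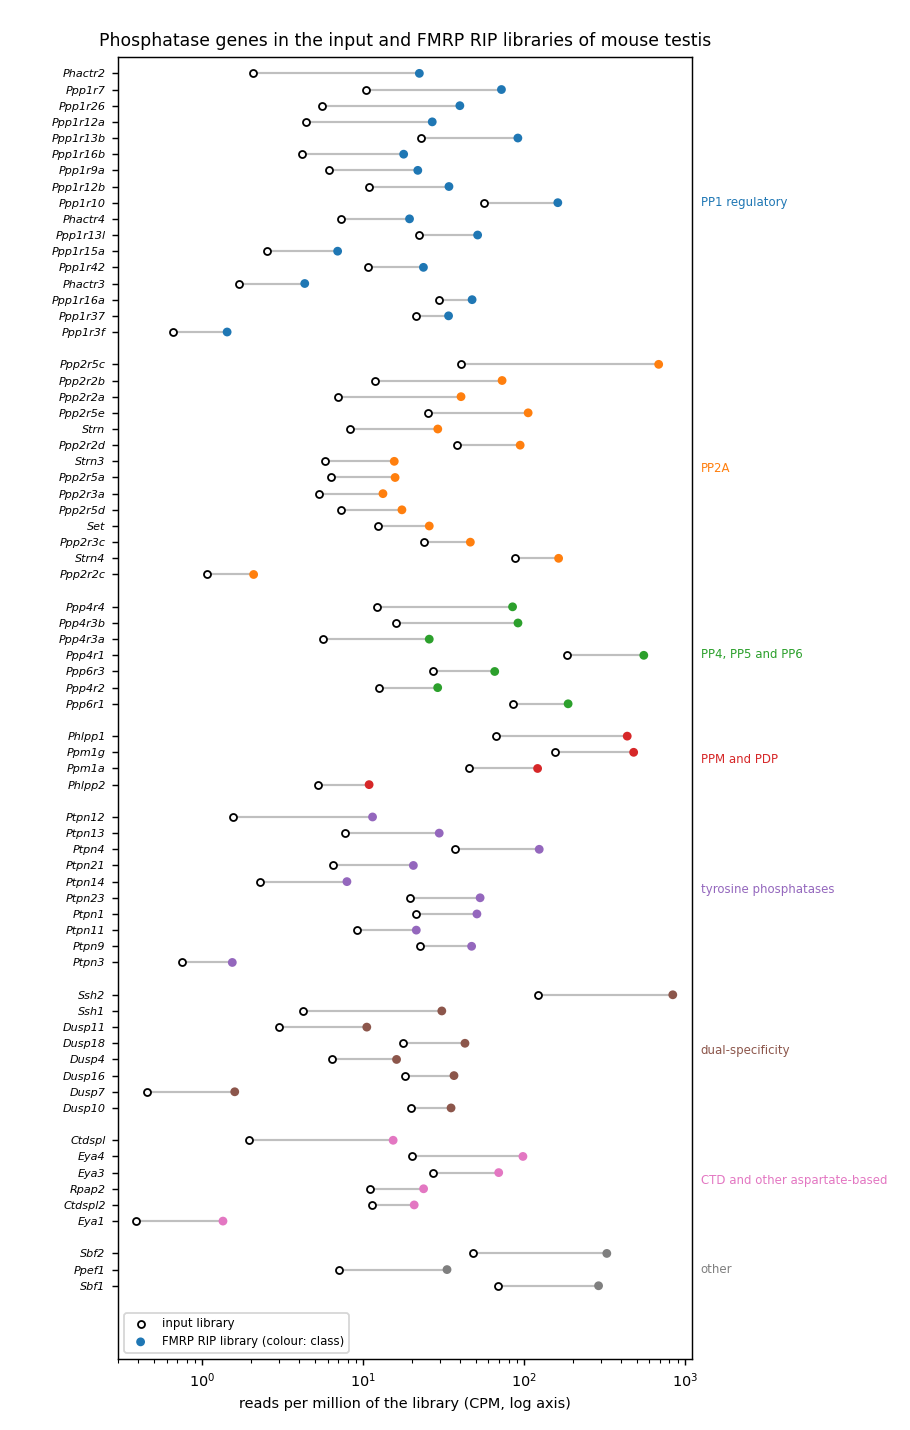
CPM (log axis) of the 69 phosphatase genes in the input library (open points) and the FMRP RIP library (filled points, coloured by class), joined by a line for each gene and ordered within each class by log2 enrichment. Every filled point lies to the right of its open point because the table lists only genes called higher in the FMRP RIP; the longest line belongs to *Ppp2r5c*, from 40.5 to 687 CPM.

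The members were uneven across the parts of a holoenzyme. The RefSeq annotation of GRCm38.p6 holds 164 protein-coding genes that follow the same symbol rule, and 69 of them (42.1%) were listed, against 21.3% of all protein-coding genes, whether or not they are expressed in testis. None of the 12 catalytic subunit genes of PP1, PP2A, calcineurin, PP4, PP5 and PP6 was listed. These include *Ppp1cc*, whose splice form PP1 gamma 2 is the PP1 of sperm, and *Ppp3cc*, the catalytic subunit of sperm calcineurin. Both PP2A scaffold genes, *Ppp2r1a* and *Ppp2r1b*, were outside the table as well, and so were both regulatory calcineurin genes, *Ppp3r1* and *Ppp3r2*. By contrast, 20 of the 23 genes for the regulatory subunits of PP2A, PP4 and PP6, striatins included, were listed. The exceptions were *Ppp2r3d*, *Ppp2r5b* and *Ppp6r2*. For PP1, 14 of 41 *Ppp1r* genes and 3 of 4 *Phactr* genes were listed.

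Among the PP1 regulators, none of 10 genes of the inhibitor families *Ppp1r1*, *Ppp1r2*, *Ppp1r11* and *Ppp1r14* was listed, a grouping made after the values were seen. These genes had a median span of 8.57 kb from start to end, and of all reference genes under 10 kb only 4.91% were listed. For the inhibitor genes under 10 kb, the absence is therefore near that of other short genes. The others are longer: *Ppp1r2* and *Ppp1r14d* span 10 to 30 kb, *Ppp1r14c* 30 to 100 kb and *Ppp1r1c* 100 kb or more. Of all reference genes in these ranges, 18.1%, 37.7% and 49.2% were listed. The part of span in the absence of the inhibitor genes was not tested. Of the glycogen-targeting genes, 1 of 7 in the *Ppp1r3* family was listed, with a median span of 11.6 kb. Enzymes that work as single polypeptides were listed in part: 10 of 17 *Ptpn* genes (median span 59.1 kb), 6 of 24 *Dusp* genes (11.8 kb), 2 of 3 slingshot genes, 3 of 4 *Eya* genes (159 kb), both *Phlpp* genes, and 2 of 14 genes of the *Ppm1* and *Pdp* families. A gene may be outside the table because it was not enriched or because it is silent in testis, and the table cannot tell these apart.

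**Figure D2:**
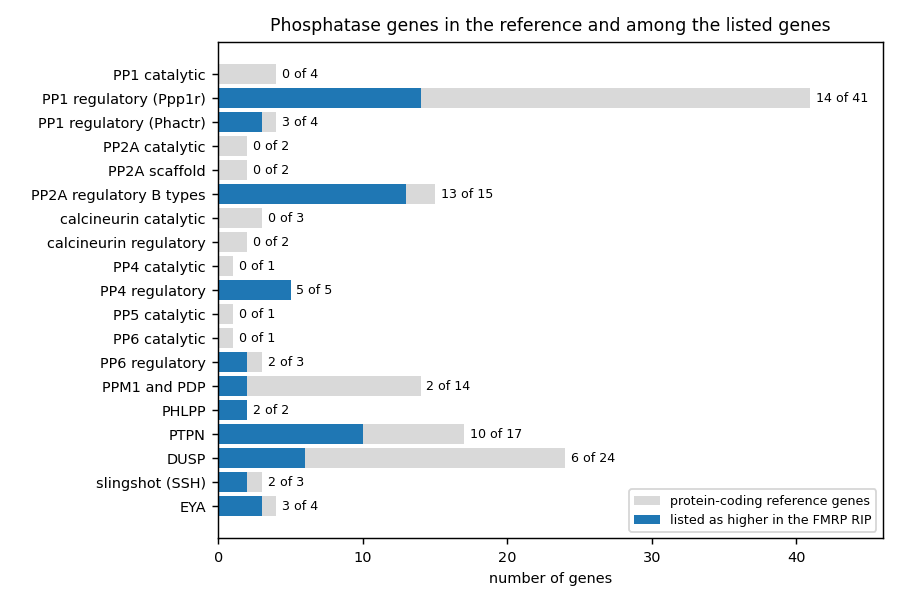
Number of protein-coding genes of each phosphatase group in the RefSeq annotation (grey bars) and the number listed as higher in the FMRP RIP (blue part). The blue part is missing from every catalytic and scaffold bar of PP1, PP2A, calcineurin, PP4, PP5 and PP6, and fills 13 of 15 PP2A regulatory genes and 5 of 5 PP4 regulatory genes.

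Long genes were listed more often, so catalytic and regulatory genes were also set side by side within ranges of span. Gene span means the genomic length of a gene, introns included. The 12 catalytic genes had a median span of 23.6 kb, and the regulatory genes of PP2A, PP4 and PP6 a median of 58.4 kb. Of all reference genes, 18.1% were listed at 10 to 30 kb, 37.7% at 30 to 100 kb and 49.2% at 100 kb or more. Under 10 kb, 0 of 3 catalytic genes and 0 of 2 of these regulatory genes were listed, so there was no contrast. Between 10 and 30 kb, 0 of 4 catalytic genes and 4 of 4 regulatory genes of PP2A, PP4 and PP6 were listed. Between 30 and 100 kb the numbers were 0 of 4 and 11 of 12, and at 100 kb or more 0 of 1 and 5 of 5. The 2 sides are not matched by enzyme, since the catalytic genes also include those of PP1, calcineurin and PP5. From 30 kb up these were *Ppp1cb*, *Ppp3ca*, *Ppp3cb*, *Ppp3cc* and *Ppp6c*, and only *Ppp6c* belongs to PP2A, PP4 or PP6. The joint group of PP2A, PP4 and PP6 regulatory genes was not set beforehand. Over all regulatory genes with a *Ppp* symbol, PP1 included and scaffolds left out, the listed numbers from the shortest to the longest range were 2 of 17, 8 of 19, 13 of 18 and 8 of 9. The part of span and of expression level in the difference was not tested.

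The highest enrichment of all members was that of 1 PP2A regulatory subunit, *Ppp2r5c*. The median of the PP2A class was 1.24, against 1.35 for all listed genes. *Ppp2r5c* (ENSMUSG00000017843, the B56 gamma subunit), on the plus strand of chromosome 12 from 110447120 to 110583062 in GRCm38, had 40.5 input CPM and 687 RIP CPM. Its ratio was 17.0 (95% confidence interval 16 to 18), its log2 enrichment was 4.05, and it ranked 59 of the 4788 listed genes. With 1 CPM added to both values, the next member, *Phactr2*, ranked 362. B56 subunits bring PP2A to proteins with a short docking motif, among them regulators of chromosome segregation.

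The other B56 genes were far lower. *Ppp2r5e* (B56 epsilon) had 25.4 input CPM and 106 RIP CPM, a ratio of 4.17 (interval 3.86 to 4.51). *Ppp2r5a* (B56 alpha) had 6.30 and 15.8 CPM, a ratio of 2.50 (interval 2.13 to 2.97). At the low end, *Ppp2r5d* (B56 delta) had 7.23 and 17.4 CPM, a ratio of 2.41 (interval 2.06 to 2.82). The ratio of *Ppp2r5c* was thus 4.07 times that of *Ppp2r5e*, with an exact conditional interval for this quotient of 3.69 to 4.48. Those of *Ppp2r5a* and *Ppp2r5d* could not be told apart by counting error, with a quotient of 1.04 (interval 0.83 to 1.31).

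All 4 B55 genes were listed, and they formed a high and a low pair. B55 subunits direct PP2A to mitotic substrates of cyclin-dependent kinases. *Ppp2r2b* (B55 beta) had 11.8 input CPM and 73.0 RIP CPM, a ratio of 6.17 (interval 5.53 to 6.90). *Ppp2r2a* (B55 alpha) had 7.01 and 40.5 CPM, a ratio of 5.78 (interval 5.02 to 6.71). Both were well above the other pair. *Ppp2r2d* (B55 delta) had 38.2 and 94.5 CPM, a ratio of 2.48 (interval 2.32 to 2.65). *Ppp2r2c* (B55 gamma) was near the lower end of the table, with 1.07 and 2.08 CPM and a ratio of 1.95 (interval 1.28 to 3.02) from 33 input reads. The intervals of the high pair overlap each other and lie above those of the low pair. Reads of *Ppp2r2a* and *Ppp2r2d* were in part fractional, and *Ppp2r2d* overlaps *Mapk1ip1*.

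All 3 striatins were listed. These proteins build the STRIPAK complex of PP2A with kinases, and their ratios ran from 1.86 to 3.49. *Strn* had 8.33 input CPM and 29.1 RIP CPM, a ratio of 3.49 (interval 3.04 to 4.01). *Strn3* had 5.81 and 15.6 CPM, a ratio of 2.68 (interval 2.27 to 3.20). *Strn4* had 88.3 and 164 CPM, a ratio of 1.86 (interval 1.77 to 1.94), so that the striatin with the most reads had the lowest ratio. *Ppp2r3a* and *Ppp2r3c*, of the calcium-binding B'' type, had log2 enrichments of 1.18 and 0.92. *Set*, a PP2A inhibitor and histone chaperone, had 12.4 and 25.7 CPM and a log2 enrichment of 0.996, and its reads were fractional in both libraries. In all, 10 of the 14 PP2A members (71.4%) were above a log2 enrichment of 1, against 70.1% of all listed genes. The median of the 14 was 1.24.

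PP4 and PP6 members were all above a log2 enrichment of 1, 7 of 7, against 70.1% of all listed genes. Their median was 1.58. PP4 is known for removing damage-induced histone phosphorylation during DNA repair and meiotic recombination. *Ppp4r4* had 12.2 input CPM and 84.8 RIP CPM, a ratio of 6.97 (interval 6.26 to 7.78). The substrate-binding subunits followed, *Ppp4r3b* with 16 and 91.6 CPM, a ratio of 5.73 (interval 5.21 to 6.31), and *Ppp4r3a* with 5.64 and 25.7 CPM, a ratio of 4.56 (interval 3.88 to 5.39). *Ppp4r1* had many more reads, 184 and 555 CPM, and a ratio of 3.01 (interval 2.92 to 3.10). *Ppp4r2*, which joins the catalytic subunit to the *Ppp4r3* proteins, was the lowest of the 5, with 12.6 and 29.0 CPM and a ratio of 2.31 (interval 2.05 to 2.60).

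The PP6 subunits *Ppp6r1* and *Ppp6r3* were close to each other. *Ppp6r1* had 84.7 input CPM and 188 RIP CPM, a ratio of 2.22 (interval 2.12 to 2.32). *Ppp6r3* had 27.3 and 65.7 CPM, a ratio of 2.41 (interval 2.22 to 2.61). The quotient of the 2 ratios was 1.09, and its interval of 0.99 to 1.19 includes 1.

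**Figure D3:**
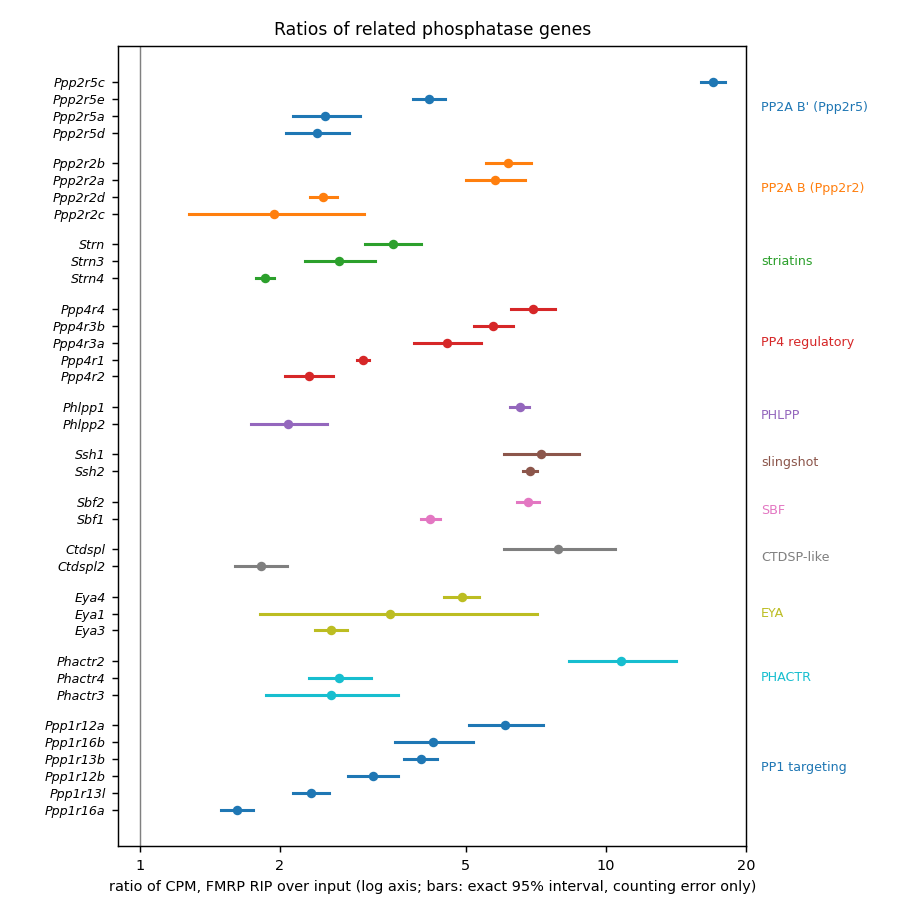
Ratio of FMRP RIP to input CPM (log axis) for related phosphatase genes; points are ratios and bars are exact 95% intervals that cover counting error only. *Ppp2r5c* lies at 17.0 apart from the other B56 genes between 2.41 and 4.17, and the ratios of *Phlpp1*, *Ctdspl* and *Phactr2* lie above those of their relatives.

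PP1 regulatory subunits made up the largest class, with 17 members and a median of 1.5. Of these, 13 (76.5%) were above a log2 enrichment of 1, against 70.1% of all listed genes. *Phactr2*, an actin-binding PP1 regulator, was the highest of the class. It had 2.07 input CPM and 22.3 RIP CPM, a ratio of 10.8 (interval 8.34 to 14.1) that rests on 64 input reads. *Phactr4* had a ratio of 2.68 (interval 2.30 to 3.13) and *Phactr3* a ratio of 2.57 (interval 1.87 to 3.58), so *Phactr2* stood apart from both. *Ppp1r7*, which encodes the conserved PP1 regulator SDS22, had 10.5 and 72.3 CPM, a ratio of 6.91 (interval 6.15 to 7.77), but its span overlaps that of *Pask* and its reads were fractional. *Ppp1r26*, a nucleolar PP1 inhibitor, had 5.51 and 39.9 CPM, a ratio of 7.23 (interval 6.17 to 8.53).

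The myosin phosphatase targeting subunits and their relatives spread over the range of the class. *Ppp1r12a*, which brings PP1 to myosin light chain, had 4.41 input CPM and 26.8 RIP CPM, a ratio of 6.09 (interval 5.08 to 7.34), and *Ppp1r12b* had a ratio of 3.16 (interval 2.80 to 3.58). *Ppp1r16b* had 4.19 and 17.8 CPM, a ratio of 4.26 (interval 3.53 to 5.19), whereas its relative *Ppp1r16a* had 29.4 and 47.5 CPM and a ratio of 1.62 (interval 1.49 to 1.75). The p53 regulators of the ASPP family differed likewise, with a ratio of 4.01 (interval 3.69 to 4.35) for *Ppp1r13b* and of 2.33 (interval 2.13 to 2.55) for *Ppp1r13l*. For all 3 pairs the interval of the quotient was above 1.

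The other PP1 subunits were between these ends or at the lower one. *Ppp1r9a*, the actin-binding neurabin, had a log2 enrichment of 1.68. *Ppp1r10*, which targets PP1 to chromatin and transcription termination, had 56.7 input CPM and 162 RIP CPM and a log2 enrichment of 1.5. *Ppp1r15a*, the subunit that directs PP1 to the translation factor eIF2 alpha, had 2.53 and 6.93 CPM and a log2 enrichment of 1.17. *Ppp1r42*, a leucine-rich repeat protein known from testis, had 10.8 and 23.7 CPM and a log2 enrichment of 1.07. *Ppp1r37* had 21.1 and 33.9 CPM and the lowest ratio of all members, 1.60 (interval 1.46 to 1.77). *Ppp1r3f*, a glycogen-targeting subunit, had the lowest log2 enrichment of the class, 0.55, at 0.66 and 1.42 CPM. Its ratio was 2.17 (interval 1.29 to 3.89).

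The PPM class held 4 members with high read numbers apart from *Phlpp2*. The PHLPP phosphatases remove the hydrophobic-motif phosphate of AKT. *Phlpp1* had 67.0 input CPM and 438 RIP CPM, a ratio of 6.53 (interval 6.24 to 6.84). *Phlpp2* had 5.22 and 10.9 CPM, a ratio of 2.08 (interval 1.73 to 2.52). The ratio of *Phlpp1* was 3.13 times that of *Phlpp2* (interval 2.58 to 3.79). *Ppm1g*, a nuclear phosphatase of splicing factors and histones, had 156 and 480 CPM, a ratio of 3.07 (interval 2.97 to 3.17). *Ppm1a*, which acts on SMAD proteins and stress kinases, had 45.2 and 121 CPM, a ratio of 2.68 (interval 2.53 to 2.85).

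Of the 10 non-receptor tyrosine phosphatases, 9 were above a log2 enrichment of 1, against 70.1% of all listed genes. The class median was 1.42. *Ptpn12*, a phosphatase of adhesion and cytoskeletal proteins, was the highest, with 1.56 input CPM and 11.4 RIP CPM and a ratio of 7.34 (interval 5.44 to 10.1) from 48 input reads. *Ptpn13* followed at 7.65 and 29.7 CPM, a ratio of 3.88 (interval 3.37 to 4.48). *Ptpn4* had the most reads of the class, 37.0 and 124 CPM, and a ratio of 3.36 (interval 3.15 to 3.59). The FERM-domain phosphatases *Ptpn14* and *Ptpn21* had ratios of 3.49 and 3.16, with a quotient interval of 0.81 to 1.52 that includes 1. *Ptpn23*, which acts in endosomal sorting, had a log2 enrichment of 1.40. *Ptpn1*, which acts on the insulin receptor, had a log2 enrichment of 1.22, *Ptpn11*, the RAS pathway phosphatase SHP2, had 1.14, and *Ptpn9* had 1.03. *Ptpn3* had the lowest log2 enrichment of all members, 0.54, at 0.75 and 1.53 CPM, and without the pseudocount its log2 ratio was 1.04. Its ratio of CPM was 2.06 (interval 1.25 to 3.50) from 23 input reads.

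Dual-specificity phosphatases split into 2 slingshot genes at the top and 6 *Dusp* genes below them. Slingshot phosphatases activate cofilin, which severs actin filaments. *Ssh2* (ENSMUSG00000037926), on the plus strand of chromosome 11 from 77216287 to 77460220 in GRCm38, had the most FMRP RIP reads of all members, in part fractional, with 122 input CPM and 840 RIP CPM, a ratio of 6.89 (interval 6.66 to 7.13). *Ssh1* had 4.25 and 30.8 CPM, a ratio of 7.25 (interval 6.05 to 8.76). The quotient of the 2 ratios was 1.05 with an interval of 0.88 to 1.28, so this pair was not told apart by counting error despite the gap in reads.

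The *Dusp* genes had a median log2 enrichment of 1.09, and 3 of the 6 were above 1, against 70.1% of all listed genes. *Dusp11*, which acts on the 5′ triphosphate of RNA, was the highest at 1.52, from 3.01 input CPM and 10.5 RIP CPM. *Dusp18* had 1.23, and *Dusp4*, a phosphatase of ERK, had 1.21. *Dusp16* and *Dusp10*, phosphatases of the stress kinases JNK and p38, had 0.98 and 0.80, with 18.1 and 36.7 CPM for *Dusp16* and 19.8 and 35.1 CPM for *Dusp10*. The ratio of *Dusp10* was 1.78 (interval 1.61 to 1.96). *Dusp7*, an ERK phosphatase, had 0.45 and 1.59 CPM and a log2 enrichment of 0.83. Its ratio of CPM was 3.50, and its 14 input reads left a wide interval of 1.93 to 6.80.

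The class called aspartate-based here was set by symbol, whatever the catalytic mechanism of each member. It included 2 relatives of the RNA polymerase II carboxy-terminal domain phosphatases. *Ctdspl* had 1.94 input CPM and 15.3 RIP CPM, a ratio of 7.89 (interval 6.04 to 10.5). *Ctdspl2* had 11.4 and 20.7 CPM, a ratio of 1.82 (interval 1.60 to 2.07). The ratio of *Ctdspl* was 4.34 times that of *Ctdspl2* (interval 3.21 to 5.93). *Rpap2*, which removes serine phosphate from the same polymerase domain, had 11.1 and 23.7 CPM and a log2 enrichment of 1.03.

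Among the *Eya* genes, which encode transcriptional coactivators with a phosphatase domain, *Eya4* had 20.03 input CPM and 98.3 RIP CPM, a ratio of 4.91 (interval 4.51 to 5.35). *Eya3* had 27.1 and 69.5 CPM, a ratio of 2.57 (interval 2.37 to 2.78). *Eya1* had the fewest reads of all members, 12 input and 49 RIP reads, and its ratio of 3.45 had an interval of 1.81 to 7.13 that covers both of the others.

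The last 3 members were all above a log2 enrichment of 2, against 25% of all listed genes. *Sbf2* and *Sbf1* encode catalytically inactive myotubularins. *Sbf2* had 48.0 input CPM and 327 RIP CPM, a ratio of 6.80 (interval 6.44 to 7.18). *Sbf1* had 69.1 and 290.4 CPM, a ratio of 4.20 (interval 4.01 to 4.40). *Ppef1*, a PPP phosphatase with EF-hand calcium-binding domains that needs no separate regulatory subunit, had 7.07 and 33.2 CPM, a ratio of 4.69 (interval 4.06 to 5.45). Its relative *Ppef2* was not listed.

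**Figure D4:**
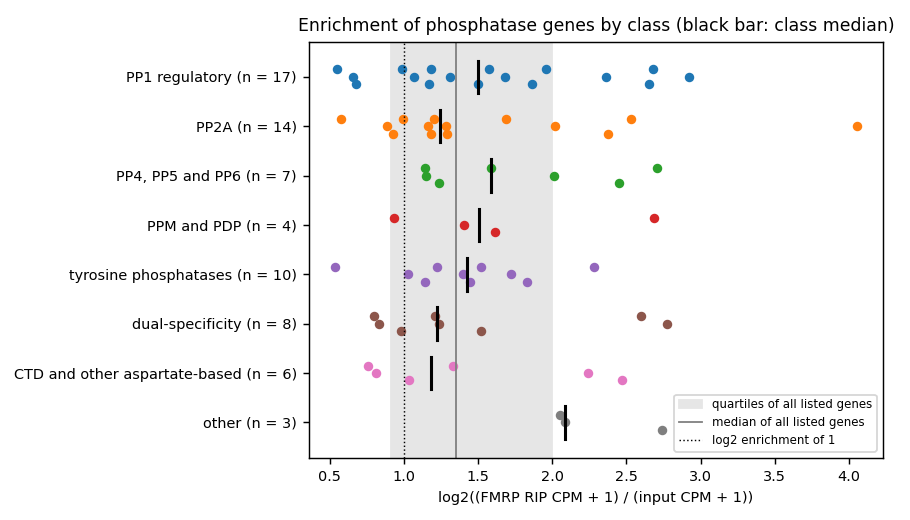
Log2 enrichment of each phosphatase gene by class, with the class median as a black bar; the grey band spans the quartiles of all listed genes (0.92 to 2.0), the grey line marks their median (1.35) and the dotted line a log2 enrichment of 1. Class medians lie between 1.18 and 2.08, and each class with more than 3 genes has members on both sides of the grey line.

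Related genes were compared in 31 pairs, chosen with the values known and therefore given as a description. The interval of the quotient excluded 1 in 22 pairs and included it in 9. By role, the 29 genes whose symbol names a phosphatase enzyme had a median log2 enrichment of 1.40, and the 40 that name a regulatory subunit, a pseudophosphatase or an inhibitor also had 1.40. A log2 enrichment above 1 was found for 22 of the former (75.9%) and 32 of the latter (80.0%), against 70.1% of all listed genes.

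Enrichment of the members went with their span. Across the 69 members, Spearman's rho between span and log2 enrichment was 0.38, and Pearson's r with log10 of the span was 0.38. Across all 4788 listed genes the coefficients were 0.16 and 0.14. These coefficients are across genes of 1 pair of libraries, which are not independent replicates and share library and depth. By their spans in the RefSeq annotation, the 21 members of 100 kb or more had a median of 2.02, and the 15 members of 10 to 30 kb had a median of 1.18. The coefficients and the spans of single genes given here are instead from the deposited gene positions, which differ slightly. The relation had exceptions at both ends: *Ppp1r26* spans 8.71 kb with a log2 enrichment of 2.65, and *Ptpn3* spans 111 kb with 0.54. With the input level, rho was 0.14 for the members and 0.25 for all listed genes, so that the order of the 2 relations differed between them. Among the 54 members of at least 5 input CPM, rho with span was 0.42.

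**Figure D5:**
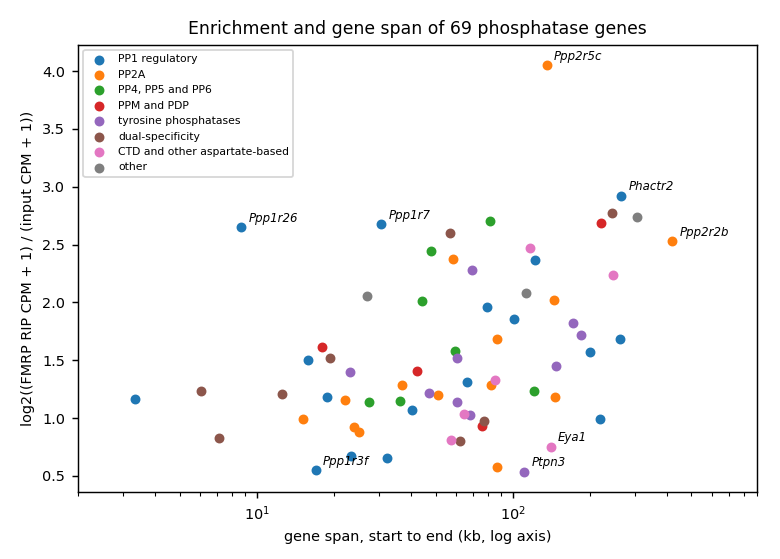
Log2 enrichment against gene span (kb, log axis) of the 69 phosphatase genes, coloured by class. *Ppp2r5c* and *Phactr2* are long and high, while *Ppp1r26* is short and high, and *Ptpn3* and *Eya1* are long and low.

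Other phosphatases and partners, taken from lists set by symbol, were listed in part. For comparison, 21.3% of all protein-coding genes were listed, and 70.1% of all listed genes were above a log2 enrichment of 1. Of 41 receptor-type tyrosine phosphatases, myotubularins, cell cycle phosphatases and related enzymes outside the rule, 19 were listed (46.3%), and 15 of these were above a log2 enrichment of 1, with a median of 1.40. The highest was the receptor phosphatase *Ptprt*, with 1.69 input CPM, 25.1 RIP CPM and a log2 enrichment of 3.28, and the lowest *Ptpru* with 0.65. Of 24 PP2A partners and STRIPAK components, 5 were listed (20.8%), close to the share of all protein-coding genes. All 5 were above a log2 enrichment of 1, against 70.1% of all listed genes. They ran from *Ints6* at 1.37 to *Cttnbp2nl*, a striatin partner, at 3.05. Of 16 genes on the list of calcineurin partners 6 were listed, from *Nfat5* at 2.99 to *Nfatc1* at 0.56, and no calmodulin gene was among them. Of 24 PP1 partners with other names 13 were listed (54.2%), and 10 of these were above 1. Their highest was *Mki67*, a proliferation marker that brings PP1 to chromosomes, with 2.07 and 109 CPM and a log2 enrichment of 5.16, and their lowest *Rrp1b* with 0.66.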

How the data were processed

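The authors deposited 1 table with CPM values per gene for 1 input and 1 FMRP RIP library, beside their own edgeR results (fold changes and p-values), which were not used. The submitters' processing notes name STAR and the build GRCm38 (mm10); the counting tool and its strand setting are not given in the sources used here, so reads of overlapping genes may not be separated. Of the 69 members, 14 overlap the span of another protein-coding gene and 16 have fractional reads in at least 1 library, that is, values more than 0.005 read from a whole number. Library totals of 30849871 and 36506932 reads were recovered as the lowest totals at which values are multiples of 0.01 read. Only 78.4% (input) and 78.8% (FMRP RIP) of the values above 0 were whole reads. No p-value was computed, and the intervals of ratios and of quotients were taken from rounded reads.

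Log2 enrichment was log2((FMRP RIP CPM + 1)/(input CPM + 1)), which understates changes of low genes. A floor of 3 reads is 0.0972 input CPM and 0.0822 RIP CPM, and every member lay above it. Symbols were matched to RefSeq GRCm38.p6: all 69 members matched, and 71 of the 4788 listed genes did not. Members, classes and lists were chosen with earlier results of these data known. Full values were planned for the highest and lowest log2 enrichment of each class, for catalytic subunits and for the 3 genes with most FMRP RIP reads. CPM, ratio and interval are given for most of these, but no catalytic subunit of PP1 to PP6 was listed. Other members have such values where relatives are compared, and so do *Ppp1r7* and *Ppp1r26*. Functions were tested on simulated data. Alternatives were pseudocounts of 5, 0.1 and 0 CPM, a minimum of 1 CPM, scaling to reads outside the listed genes, and unique symbols. Computation used scipy 1.17.1 with pandas 2.3.3 and numpy 2.4.6 under Python 3.11.15; figures used matplotlib 3.10.9.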

Additional observations from a re-analysis of the deposited data

How the results depend on the processing

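The number of members with a log2 enrichment above 1 was 54. It was lowest, 40, at a pseudocount of 5 CPM and highest, 69, with scaling to reads outside the listed genes, within 1.5 times throughout. That scaling multiplies each FMRP RIP value by 1.92 and adds up to 0.94 on the log2 scale, so enrichment is relative to the library totals. It put the members' median at 2.31 and that of all listed genes at 2.24, and the class medians at 2.43 for PP1 regulatory subunits, 2.14 for PP2A, 2.52 for PP4 and PP6, 2.44 for PPM, 2.31 for tyrosine, 2.13 for dual-specificity, 2.10 for aspartate-based and 3.0 for the other phosphatases. A pseudocount of 5 CPM lowered the members' median to 1.15 against 1.04 for all listed genes, and the medians of PP1 regulatory subunits to 1.27, PP2A to 0.90, PP4 and PP6 to 1.53 and tyrosine phosphatases to 1.12. Without a pseudocount, the members' median of 1.52 lay below that of all listed genes, 1.61, so which of the 2 is higher depends on the pseudocount. The same setting gave 1.57 for the aspartate-based and 1.57 for the dual-specificity class, and put the 4 members under 1 CPM in the input (*Dusp7*, *Eya1*, *Ppp1r3f* and *Ptpn3*) above 1. Without *Ssh2*, the share of FMRP RIP reads on the members was 0.552%. The 44 members with whole reads and no overlapping gene, an alternative chosen after seeing the data, had a median of 1.43. The enriched direction is fixed by the table, so these settings say nothing about its stability. No paired analysis was possible because input and FMRP RIP are 1 library each. Depth limits the ratios of members with few input reads, the lowest being 12. A pseudocount of 5 CPM lowered *Phactr2* from 2.92 to 1.95, *Ctdspl* from 2.47 to 1.55 and *Ptpn12* from 2.28 to 1.32. *Phactr2* then lay below *Ssh2* (2.73), *Sbf2* (2.64), *Phlpp1* (2.62) and *Ppp4r4* (2.39). The places of *Phactr2* and *Ptpn12* at the top of their classes were read at a pseudocount of 1 CPM.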

Other observations

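Members were unevenly spread over the chromosomes. Chromosome 12 held 9 of the 69 members (13%) and 3.95% of all listed genes, and 9 of the 10 reference genes of the symbol rule on that chromosome were listed. Chromosome 1 held as many members, 9, with 6.14% of all listed genes, and there they were 9 of 18 reference genes. Those on chromosome 12 were *Ppp2r5c*, *Ppp2r5e*, *Ppp2r3c*, *Ppp4r3a*, *Ppp4r4*, *Ppp1r13b*, *Ppm1a*, *Ptpn21* and *Strn3*. Their log2 enrichments ran from 0.92 for *Ppp2r3c* to 4.05 for *Ppp2r5c*. This was noticed after the values were seen and was not tested.

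Reads were concentrated in few members. The 5 members with most FMRP RIP reads, *Ssh2*, *Ppp2r5c*, *Ppp4r1*, *Ppm1g* and *Phlpp1*, held 47.2% of the members' FMRP RIP reads and 34.9% of their input reads.

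Cell cycle phosphatases left out by the symbol rule were also listed. *Cdc14a* had 31.9 input CPM and 300.1 RIP CPM, a log2 enrichment of 3.20, and *Cdc25a* had 16.9 and 82.1 CPM and a log2 enrichment of 2.22.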
